A study of Mus musculus with 10 samples.

Results

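Interferon response and immunoproteasome genes were examined in jejunal RNA of mice lacking Klf9 (Kruppel-like factor 9, a zinc finger transcription factor) and of wild type mice. The set was defined by symbol as 9 genes, Psmb8, Psmb9, Psmb10, Tap1, Tap2, Irf1, Irf7, Gbp2 and Isg15, taking probe sets that the platform annotation gives to 1 of them alone. This left 8 genes with 12 probe sets, of 8290 genes with a tested probe set on the array. The Isg15 probe set is annotated to a further gene as well and was therefore left out. Of the 12 probe sets, 9 passed the filter on low signal. The 3 that did not are further Tap1 probe sets, with scaled signals between 7.10 and 58.7. The brightest probe set stands for each gene.

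The tissue was jejunum, which lies between duodenum and ileum, taken from male mice at postnatal day 30. Per the labels, 5 arrays carry RNA of Klf9 knockout (Klf9-/-) mice, written KO1 to KO5 below by replicate number, and 5 carry RNA of wild type mice (WT1 to WT5). Per the series' design text each Affymetrix mouse 430A GeneChip stands for a single animal. The protocol for labelling, in contrast, mentions pooled RNA. One label of KO1 names both genotypes, and its title was used. The strain and the part of Klf9 that the mutation removes are not given in the sources used here.

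Interferons are secreted proteins that tell cells of infection. Type I and type III interferons switch on antiviral genes that carry the interferon-stimulated response element (ISRE). Type II interferon (interferon gamma, made by T cells and NK cells) acts on genes that carry the gamma-activated site (GAS). In the immunoproteasome the subunits Psmb8, Psmb9 and Psmb10 take the place of the constitutive catalytic subunits Psmb5, Psmb6 and Psmb7. The peptides it cuts are carried into the endoplasmic reticulum by the transporter made of Tap1 and Tap2 and are loaded there onto MHC class I.

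Of the 8 genes, Psmb9, Tap1, Psmb8 and Tap2 lie side by side on chromosome 17 in the MHC class II region. Psmb9 and Tap1 are read in opposite directions from starts that lie close together, and this pair had the highest correlation over arrays, as given further on. The stretch between their starts is shown for that reason, in lower case throughout. It has 225 bases in the RefSeq table of build GRCm38.p6 and is written on the plus strand, that of Tap1.
Psmb9-Tap1, chr17:34187331-34187555: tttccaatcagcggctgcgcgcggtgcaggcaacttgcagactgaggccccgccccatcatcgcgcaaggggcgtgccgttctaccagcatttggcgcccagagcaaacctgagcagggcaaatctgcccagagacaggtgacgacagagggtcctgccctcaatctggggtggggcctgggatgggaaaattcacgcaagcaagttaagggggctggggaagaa
Windows from 250 bases before to 50 after the start were searched for an ISRE-like match (GAAANNGAAA, both strands) and for a GAS match (TTCNNNGAA, which reads alike on both strands). Windows were found for Psmb8, Psmb9, Psmb10, Tap1, Irf1 (with 2 starts), Irf7 and Gbp2, and for Isg15, whose signal was not analysed here. The Isg15 window held 3 ISRE-like matches that overlap one another. An ISRE-like match was found in Gbp2, and a GAS match in Psmb8 and at 1 of the 2 Irf1 starts. Of all 32851 promoter windows in the table, 3.44% hold an ISRE-like match and 8.30% a GAS match. The 120 bases before the start of Gbp2, Psmb8 and Irf1 follow, on the plus strand with the match in capitals. They are shown because a match was found there. In the stretch between Psmb9 and Tap1 neither of these letter strings occurs.
Gbp2, chr3:142620543-142620662: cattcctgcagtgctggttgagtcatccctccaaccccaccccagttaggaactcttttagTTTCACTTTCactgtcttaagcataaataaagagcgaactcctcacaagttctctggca
Psmb8, chr17:34198075-34198194: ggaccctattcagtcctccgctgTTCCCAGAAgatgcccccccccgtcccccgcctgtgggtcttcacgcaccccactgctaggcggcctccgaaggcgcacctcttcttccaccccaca
Irf1, chr11:53769894-53770013: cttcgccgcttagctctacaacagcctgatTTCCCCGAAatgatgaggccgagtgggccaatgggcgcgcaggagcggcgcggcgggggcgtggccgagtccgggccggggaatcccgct
The Gbp2 match spans bases 59 to 50 before the start, the Psmb8 match bases 97 to 89, and the Irf1 match bases 90 to 82. A match describes the letters and does not show that a factor binds there.

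Klf9 itself went against the label on 2 arrays. Its brightest probe set had a scaled signal of 944 on KO1 and of 340 to 526 on KO2 to KO5, against 551 on WT1 and 964 to 1320 on WT2 to WT5. Every direction given here therefore rests on labels that Klf9 contradicts on both arrays labelled replicate 1, and these are marked in the plots. The tissue label was checked with markers of absorptive enterocytes. All 10 that were tested were bright, from Lct (lactase, mean signal 9644) to Apoa1 (apolipoprotein A-I, mean signal 26702), and none was at 0. Median signals over all probe sets lay between 171 and 194 per array. The number of arrays, 5 per group, limits the precision of every value.

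No member passed the test between the labelled groups, and 7 of 8 were nominally higher on the arrays labelled knockout. Their log2 differences, knockout minus wild type, ran from -0.02 (Irf1) to 0.27 (Tap1). Their median was 0.20, against -0.0053 over all 13579 probe sets tested, of which 48.6% had a difference above 0. In limma 0 of the 8 had an adjusted p under 0.05, as had 0% of all probe sets. At an unadjusted p under 0.05 there was 1 member (Psmb10, higher in the knockout), against 7.89% of all probe sets, of which 3.65% were higher and 4.24% lower. For none of the 8 were the groups without overlap, which held for 1.55% of all probe sets. Psmb8, Psmb9, Tap1 and Gbp2 vary together over arrays, as shown further on, so that the count of 7 is not 7 separate observations. Irf7, also among the 7, had a negative r with 6 of the other 7 members.

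Irf1, an interferon regulatory factor that is itself induced by interferon gamma, differed least between the groups. Its scaled signal was 2646, 3069, 3407, 2877 and 3587 on KO1 to KO5 and 2461, 2619, 4226, 3622 and 3125 on WT1 to WT5. The wild type arrays held both the lowest and the highest value, and the knockout arrays lay inside that range. The log2 difference was -0.02 ± 0.15 (SE; limma adjusted p = 0.984). Its sign turned to 0.034, 0.0042, 0.083 and 0.028 without KO1, KO4, WT3 or WT4. The arrays fall into 3 runs by gaps in the hybridize times of their processing records (KO1, KO2, WT1 and WT2; KO3, KO4, WT3 and WT4; KO5 and WT5). Within these it was 0.16, -0.32 and 0.20.

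Irf7, the master regulator of type I interferon genes and itself a strong interferon target, fell into a high and a low range, each holding arrays of both labels. Its signal was 2373, 2208, 801, 2317 and 1246 on KO1 to KO5. On WT1 to WT5 it was 2296, 1400, 1290, 1374 and 1212. Thus KO1, KO2, KO4 and WT1 lay at 2208 or more, the other 6 arrays at 1400 or less, and KO3 was lowest. The log2 difference was 0.16 ± 0.27 (SE; limma adjusted p = 0.922; exact two-sided permutation p = 0.611). It was 0.41 without KO3 and 0.03 without KO1. WT1 stood apart from the other wild type arrays.

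Gbp2, a guanylate-binding GTPase that interferon gamma induces to attack intracellular microbes, had the widest range of the 8. Its signal was 439, 574, 2613, 390 and 496 on KO1 to KO5 and 372, 951, 1021, 589 and 263 on WT1 to WT5, a range of 9.93-fold over the arrays. KO3 lay far above the other 9, and WT2 and WT3 came next. The log2 difference was 0.22 ± 0.46 (SE; limma adjusted p = 0.937). KO3 decides its sign, since without that array the difference was -0.25. Without WT5 it was -0.02. A further Gbp2 probe set, of a type that can also bind related sequences, was again highest on KO3 (1440) and WT3 (654), with a log2 difference of 0.12 ± 0.43 (SE; limma adjusted p = 0.965).

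**Figure D1:**
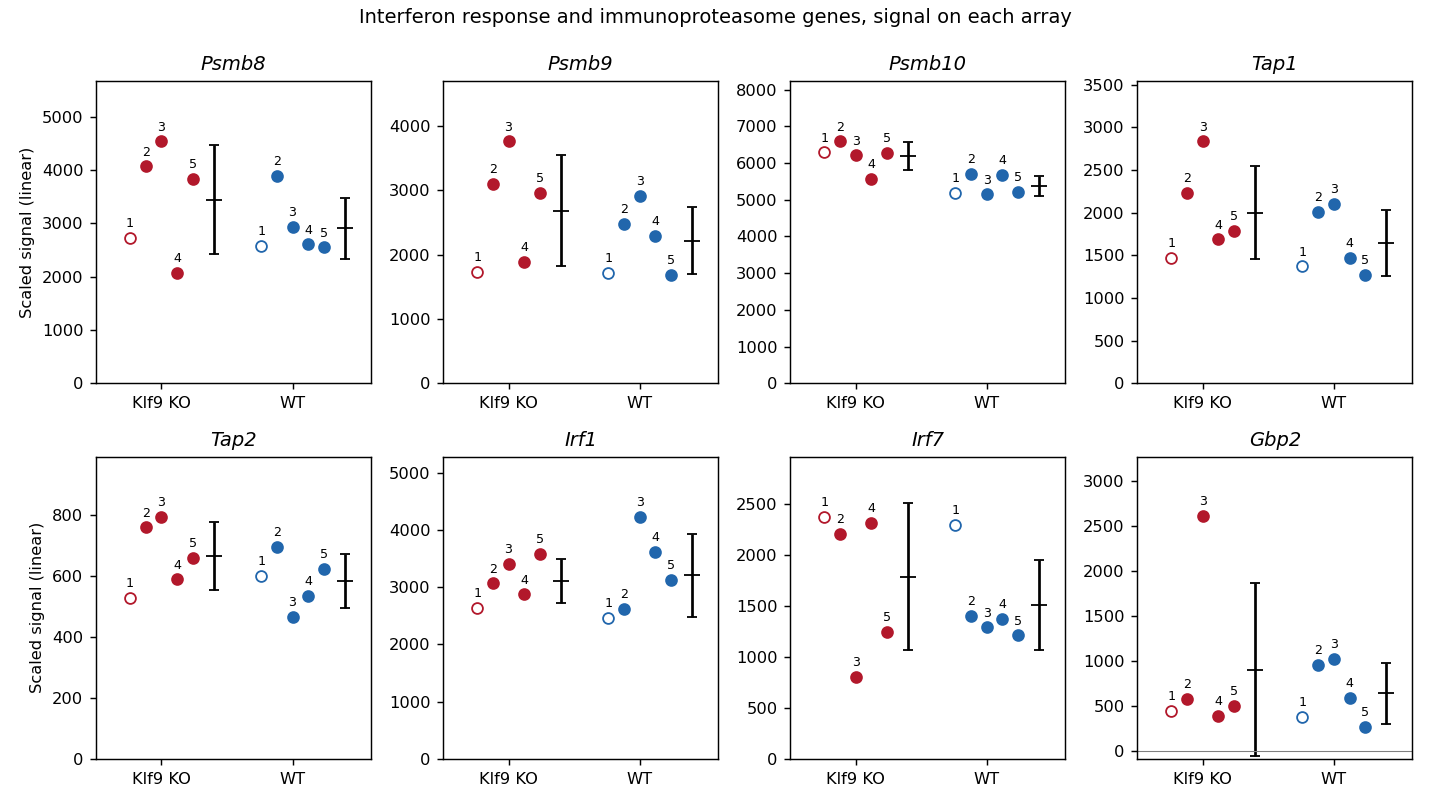
Scaled signal (linear, y axis) of the 8 genes on each array, with knockout arrays in red, wild type arrays in blue, numbers giving the replicate and open circles the arrays labelled replicate 1; black bars are mean ± SD over 5 arrays. Irf7 is at 2208 or more on KO1, KO2, KO4 and WT1, Gbp2 reaches 2613 on KO3, and Psmb10 varies least.

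Among the immunosubunits, Psmb10 had the smallest spread and the lowest p. Its signal was 6287, 6586, 6205, 5561 and 6285 on KO1 to KO5 and 5180, 5692, 5144, 5678 and 5201 on WT1 to WT5. All knockout arrays but KO4 lay above all wild type arrays, and KO4 lay below WT2 and WT4. The group means were 6185 ± 378 and 5379 ± 280 (SD, n = 5), a fitted ratio of 1.15 on the log2(signal + 50) scale. The log2 difference was 0.20 ± 0.09 (SE; limma unadjusted p = 0.0386, adjusted p = 0.614; exact two-sided permutation p = 0.0238, where 0.00794 is the smallest that 5 against 5 allows). It was 0.24, 0.12 and 0.27 within the runs and stayed between 0.18 and 0.24 with any single array left out.

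Psmb8 and Psmb9 were high on the same arrays, KO2, KO3 and KO5 among those labelled knockout. Psmb8 had a signal of 2729, 4064, 4532, 2061 and 3825 on KO1 to KO5 and 2571, 3893, 2932, 2601 and 2546 on WT1 to WT5. KO4 was the lowest array of all for Psmb8, and WT2 the only wild type array in the upper range. Psmb9 had a signal of 1728, 3093, 3759, 1880 and 2958 on KO1 to KO5 and 1713, 2473, 2914, 2294 and 1687 on WT1 to WT5. KO1 and KO4 lay in the lower part of the wild type range. The log2 differences were 0.20 ± 0.20 and 0.24 ± 0.21 (SE; limma adjusted p = 0.834 and 0.812). Within the runs Psmb8 differed by 0.07, 0.15 and 0.58 and Psmb9 by 0.16, 0.04 and 0.79. The last of each rests on 1 array per label. Without KO4 Psmb8 differed by 0.37 and Psmb9 by 0.35, and without KO3 they differed by 0.09 and 0.11.

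The transporter subunits showed the same order at the top. Tap1 had a signal of 1466, 2236, 2834, 1685 and 1785 on KO1 to KO5 and 1369, 2008, 2100, 1472 and 1272 on WT1 to WT5. KO3 and KO2 were highest, followed by WT3 and WT2. Tap2 had a signal of 529, 760, 793, 589 and 659 on KO1 to KO5 and 600, 696, 466, 534 and 624 on WT1 to WT5. KO3 and KO2 were again highest, but WT3, high for Tap1, was the lowest array for Tap2. The log2 differences were 0.27 ± 0.18 for Tap1 and 0.17 ± 0.13 for Tap2 (SE; limma adjusted p = 0.740 and 0.783). Within the runs they were 0.12, 0.31 and 0.47 for Tap1 and -0.03, 0.42 and 0.07 for Tap2. Without KO3, the differences were 0.13 for Tap1 and 0.11 for Tap2.

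Over the 10 arrays Psmb8, Psmb9, Tap1 and Gbp2 varied together, and Irf7 had negative r with each of these 4. The size of that r depended on KO3, without which it ran from -0.37 to -0.05. These 4 were correlated with one another at Pearson r between 0.69 and 0.91 on the log2 scale. Irf7 had a negative r with 6 of the other 7 members, and 0.03 with Psmb10, which turned to -0.25 with quantile and -0.18 with cyclic loess normalization. Of 28 pairs 6, or 21.4%, had r of 0.7 or more, against 2.02% of all pairs of the 8290 genes. The median r was 0.42 over the 28 pairs and 0.01 over all pairs. All pairs share the same 10 arrays and their scaling.

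Psmb9 and Tap1, the divergent neighbours shown above, had the highest r, 0.91 (permutation p = 0.00044, adjusted over 28 pairs 0.0109), with Spearman's rho 0.95 (permutation p = 0.00011, adjusted 0.00308). The value was 0.83 without the 2 arrays farthest from the Psmb9 median, KO3 and WT5. Tap1 and Gbp2, which lie on different chromosomes, had r = 0.88 (permutation p = 0.00078, adjusted 0.0109) and rho 0.84 (permutation p = 0.0037, adjusted 0.0316), and r = 0.68 without KO3 and WT5. Psmb9 and Gbp2 had r = 0.81 (permutation p = 0.00192, adjusted 0.0179) and rho 0.81 (permutation p = 0.00686, adjusted 0.0384), and r = 0.64 without KO3 and WT5. Psmb8 and Psmb9 had r = 0.83 (permutation p = 0.00515, adjusted 0.0360) and rho 0.87 (permutation p = 0.00232, adjusted 0.0316), and r = 0.68 without KO2 and KO3. These were the 4 pairs that passed by Pearson's r. By rho 5 passed, the further pair being Psmb8 with Tap1 (rho 0.83, permutation p = 0.00452, adjusted 0.0316; r = 0.77, permutation p = 0.0097, adjusted 0.0543; r = 0.54 without KO2 and KO3).

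Whether these pairs passed depended on the arrays kept, and fewer arrays also make a low p harder to reach. Without KO3, 0 pairs passed by exact permutation of Pearson's r and 4 had an unadjusted p under 0.05. The 4 r values were then 0.86, 0.78, 0.71 and 0.76 in the order above. Without both arrays labelled replicate 1, 0 passed and 6 had an unadjusted p under 0.05, with r of 0.89, 0.87, 0.80 and 0.84. Leaving out WT1 alone left 2 pairs, and leaving out WT3 gave 9. The runs hold 4, 4 and 2 arrays, too few for a correlation within each. With label and run taken out as means, the residual r was 0.93 for Psmb9 with Tap1, 0.89 for Tap1 with Gbp2, 0.83 for Psmb9 with Gbp2 and 0.96 for Psmb8 with Psmb9.

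Irf7 had its most negative r with Gbp2, -0.64 (permutation p = 0.0402, adjusted 0.141), with rho -0.38 (permutation p = 0.279, adjusted 0.434). Without KO1 and KO3 that r was -0.26. With label and run taken out as means and KO3 kept, the residual r was -0.97, again a description that was not tested. Without KO3 alone the r of Irf7 was -0.30 with Gbp2, -0.05 with Tap1 (from -0.44), -0.27 with Psmb8 (from -0.51) and -0.37 with Psmb9 (from -0.59). With Irf1 the r of Irf7 was -0.61 (permutation p = 0.0607, adjusted 0.170), with rho -0.65 (permutation p = 0.0489, adjusted 0.196), and r was -0.58 without WT1 and WT3. None of the pairs with Irf7 passed after adjustment over the 10 arrays. Without WT5, Irf7 with Gbp2 had r = -0.85 and passed (exact permutation p = 0.00354, adjusted 0.0371).

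**Figure D2:**
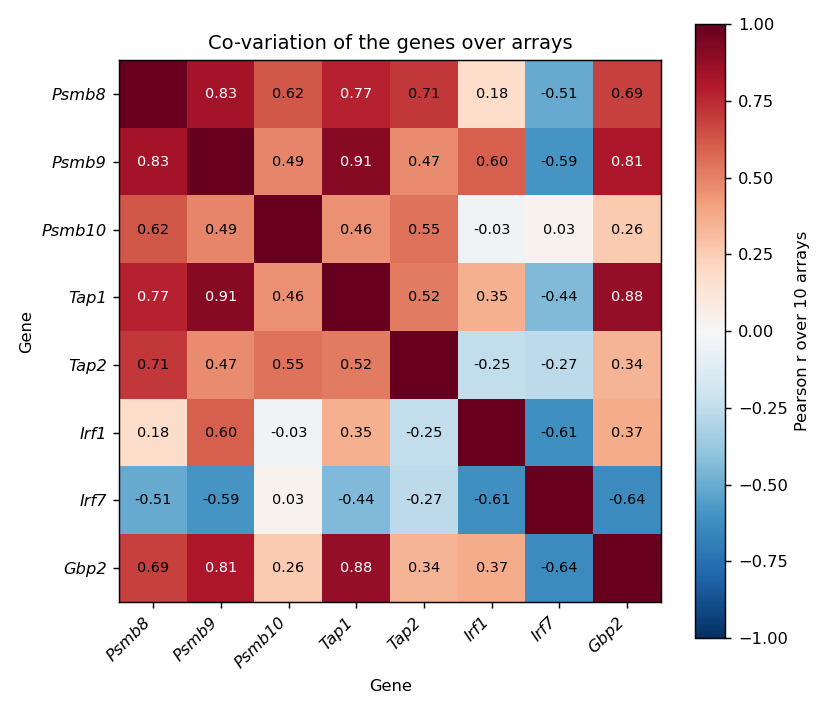
Pearson r of log2 signal over 10 arrays for each pair of the 8 genes; both axes list the genes, and colour and number give r. Psmb8, Psmb9, Tap1 and Gbp2 form a block of r from 0.69 to 0.91, and the Irf7 row is negative except with Psmb10 (0.03, but -0.25 and -0.18 with quantile and cyclic loess normalization).

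Lists of other interferon targets separated along the same line. A list of 39 genes typical of type I and type III interferon had 28 tested members, and one of 21 genes typical of interferon gamma had 16. Irf7 had r of 0.7 or more with 13 of the 28 type I targets, against 3.22% of all genes, and with 0 of the 16 type II targets. Its median r was 0.69 with the former and -0.43 with the latter. Among the former were Oas1a, an oligoadenylate synthetase that activates RNA decay, with r = 0.91, Rtp4, a receptor transporter protein induced by interferon, with 0.91, and Oasl2, an oligoadenylate synthetase-like protein, with 0.90. Oas1a had a signal of 2328, 2737, 1295, 3536 and 1442 on KO1 to KO5 and 2549, 1597, 1560, 1882 and 1488 on WT1 to WT5. Like Irf7 it was highest on KO1, KO2, KO4 and WT1 and lowest on KO3.

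Gbp2 showed the opposite picture. It had r of 0.7 or more with 12 of the 16 type II targets, against 4.03% of all genes, and with 1 of the 28 type I targets. Tap1 had 11 of 16 and 2 of 28 (3.86% of all genes), and Psmb9 had 10 of 16 and 2 of 28 (5.50% of all genes). The medians with the type II list were 0.82 for Gbp2, 0.78 for Tap1 and 0.75 for Psmb9, and with the type I list -0.28, -0.19 and -0.36. Igtp, an immunity-related GTPase, had r = 0.96 with Tap1. Its signal was 1624, 3728, 5833, 2612 and 2920 on KO1 to KO5 and 1430, 3339, 4956, 1876 and 1011 on WT1 to WT5, high on KO3 and WT3 and low on both arrays labelled replicate 1 and on WT5. Iigp1, a GTPase of the same family, and Ido1, which degrades tryptophan, had r of 0.92 and 0.90 with Gbp2. The type I target that ran with Gbp2 was Ifitm3, a membrane protein that blocks virus entry, with r = 0.82.

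The other members had weaker relations with the type II list. Psmb8 had r of 0.7 or more with 2 of 16 type II and 1 of 28 type I targets, against 1.83% of all genes. Its median r was 0.53 and -0.42, and Irf1 had 0.38 and -0.36. Psmb10 (0.14 and 0.03) and Tap2 (0.15 and -0.12) followed neither list. Cxcl10 and Cxcl11, chemokines induced by interferon gamma, did not follow most other type II targets, with r of 0.20 and -0.45 with Gbp2. Cxcl9 and Batf2, also of that list, had 0.38 and 0.27. Cxcl10 and Cxcl11 were dim (mean signals 124.5 and 149, filter at 123). Gbp3 and Gbp6 were dim as well (134 and 148) and had r of 0.85 and 0.90 with Gbp2. Without KO3 the median of Irf7 with the type I list was 0.74 (15 of 28 at 0.7 or more, against 3.78% of all genes). That of Gbp2 with the type II list was then 0.72 (10 of 16, against 2.10%), that of Tap1 0.65 (7 of 16, against 2.05%) and that of Psmb9 0.64 (6 of 16, against 3.81%). Without both arrays labelled replicate 1 the medians of Irf7, Gbp2, Tap1 and Psmb9 with these lists were 0.66, 0.84, 0.75 and 0.69. Without KO3 the negative medians moved to -0.21 for Irf7 with the type II list, to -0.12 for Gbp2 and -0.26 for Psmb9 with the type I list, and to 0.017 for Tap1 with the type I list, where 15 of 28 were positive.

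**Figure D3:**
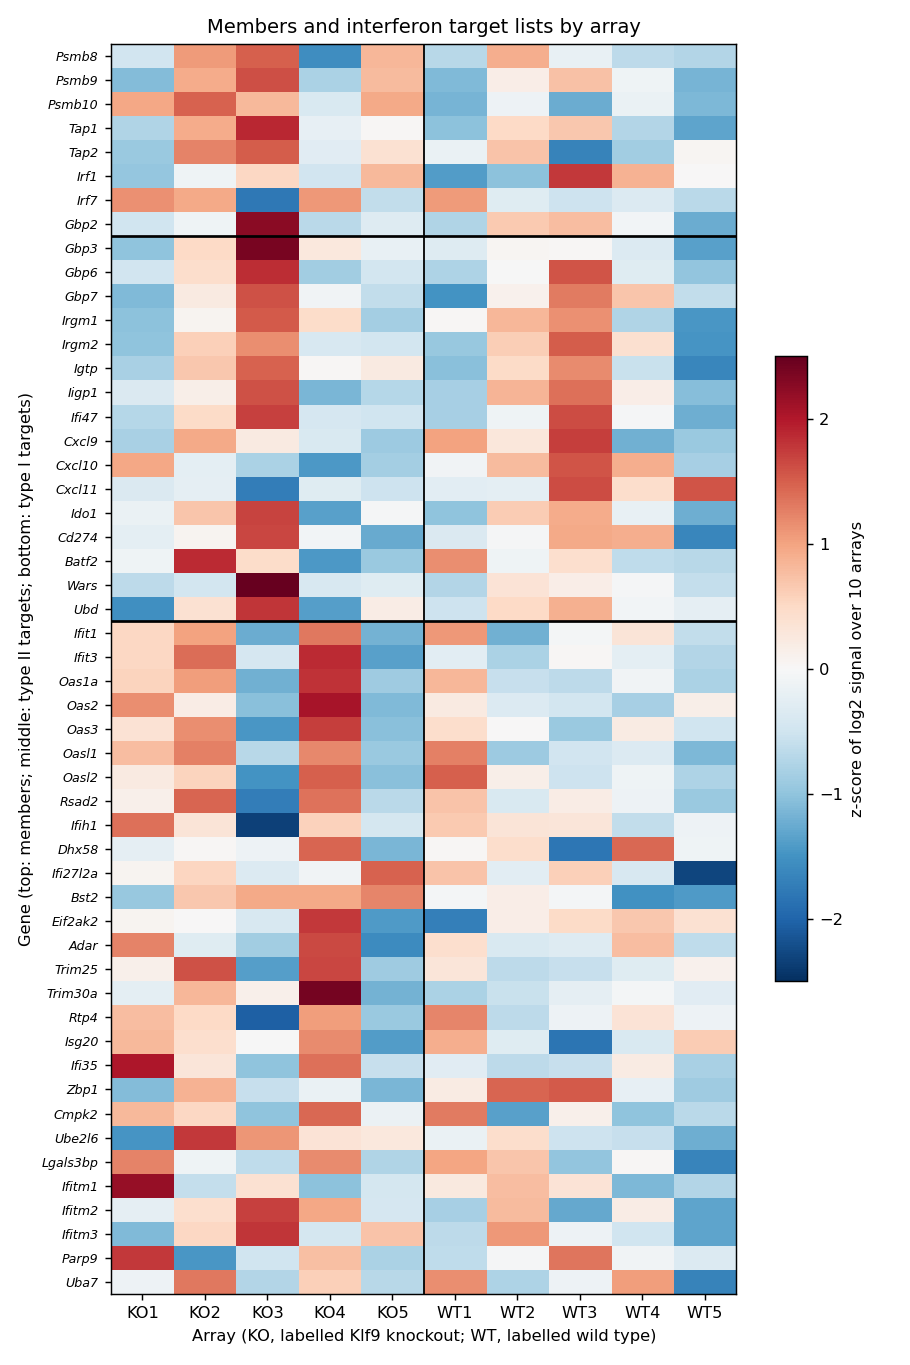
z-score of log2 signal (colour) for each gene (rows: the 8 members at the top, 16 type II targets in the middle, 28 type I targets below) on each array (columns, KO labelled knockout, WT labelled wild type). The mean z-score of the type II targets is highest on KO3 (1.20) and WT3 (1.13), and that of the type I targets on KO4 (1.09) and KO2 (0.58).

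**Figure D4:**
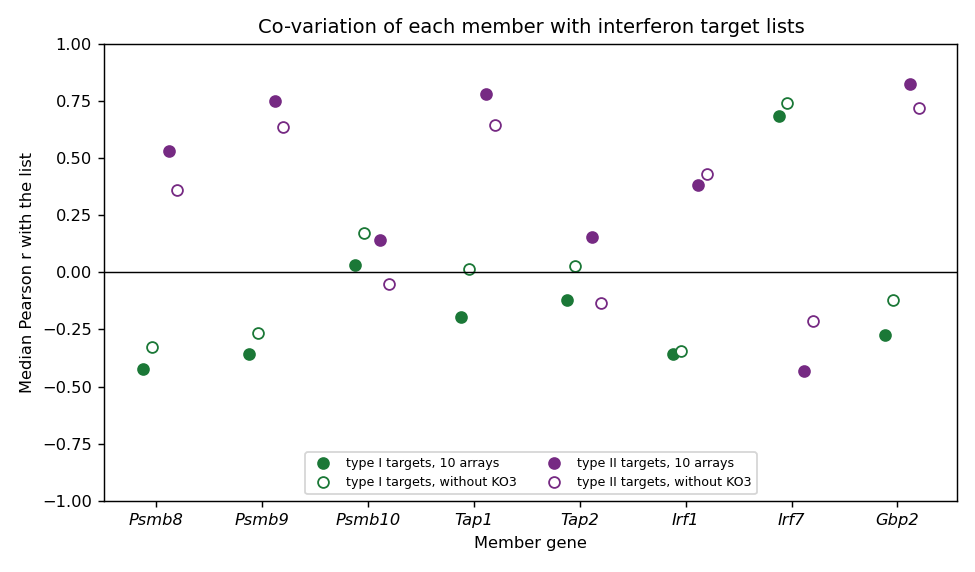
Median Pearson r (y axis) of each member (x axis) with the 28 type I targets (green) and the 16 type II targets (purple), over 10 arrays (filled) and without KO3 (open). Irf7 is at 0.69 with type I and -0.43 with type II targets, and Gbp2 at -0.28 and 0.82.

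Between the labelled groups 0 genes of any pathway list had an adjusted p under 0.05 in limma. Of the 28 type I targets 22 were higher and 6 lower in the knockout, with a median log2 difference of 0.13, where 48.6% of all probe sets were higher. These targets vary together over arrays and are not separate observations. At an unadjusted p under 0.05 there was 1 of 28, no larger a share than the 7.89% of all probe sets, namely Bst2 (tetherin, which holds budding virus at the membrane), at 0.47 ± 0.19 (SE; limma adjusted p = 0.570). Its signal was 177, 311, 338, 340 and 371 on KO1 to KO5 and 244, 262, 243, 143 and 148 on WT1 to WT5, so that KO1 lay inside the wild type range and the other knockout arrays above it. Of the 16 type II targets 8 were higher and 8 lower, with a median of 0.02. The lowest p there was that of Cxcl11, at -0.25 ± 0.12 (SE; limma adjusted p = 0.640), and Igtp differed by 0.50 ± 0.39 (SE; limma adjusted p = 0.784).

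Ifng and Ifnb1, the genes of interferon gamma and beta, were under the filter on signal and were not tested. The 5 receptor chains tested had a median log2 difference of 0.0063, with Ifnar2, of the type I receptor, at 0.22 ± 0.12 (SE). Ifngr2, of the interferon gamma receptor, had r = -0.89 with Psmb9. The 13 signalling genes tested had a median of 0.0083 with 7 higher, among them Usp18, a negative regulator of type I signalling, at 0.44 ± 0.26, and Irf8, a factor of myeloid and B cells, at 0.27 ± 0.18 (SE). None of these had an unadjusted p under 0.05.

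Of 8 partners in antigen processing, 2 were nominally higher and 6 lower in the knockout, with a median log2 difference of -0.05. Pdia3, a disulfide isomerase of the peptide loading complex, had the lowest p, at -0.25 ± 0.09 (SE; limma unadjusted p = 0.0206, adjusted p = 0.543). The MHC class I light chain B2m differed by -0.24 ± 0.13 and Psme1, a subunit of the proteasome activator that interferon gamma induces, by 0.21 ± 0.13 (SE). H2-Eb1, an MHC class II beta chain, had r = 0.93 with Psmb8.

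The constitutive core of the proteasome varied with Psmb9 over arrays. Of 14 subunits 13 were nominally higher in the knockout, with a median log2 difference of 0.08, against 48.6% of all probe sets. The subunits too vary together over arrays. Psmb4 alone of the 14 had an unadjusted p under 0.05, against 7.89% of all probe sets, at 0.29 ± 0.10 (SE; limma unadjusted p = 0.0126, adjusted p = 0.511). The subunits that the immunosubunits replace, Psmb5, Psmb6 and Psmb7, differed by 0.13 ± 0.09, 0.18 ± 0.10 and 0.02 ± 0.11 (SE), against 0.20, 0.24 and 0.20 for Psmb8, Psmb9 and Psmb10. The difference between these pairs was not tested. The median r of Psmb9 with the 14 subunits was 0.69, that of Tap1 0.64 and that of Irf7 -0.48. Without KO3 these medians were 0.68, 0.54 and -0.27. Psmb9 had r of 0.7 or more with 6 of the 14, against 5.50% of all genes. Tap1 had 1 of 14 (3.86% of all genes), namely Psma5, an alpha ring subunit, with r = 0.92. Irf1 had 3 of 14 (402 of 8289 other genes), and Psmb8 and Gbp2 had 2 each (1.83% and 4.03% of all genes). Psmb10 and Tap2 had 1 each (165 and 122 of 8289 other genes), and Irf7 had 0 (3.22% of all genes).

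**Figure D5:**
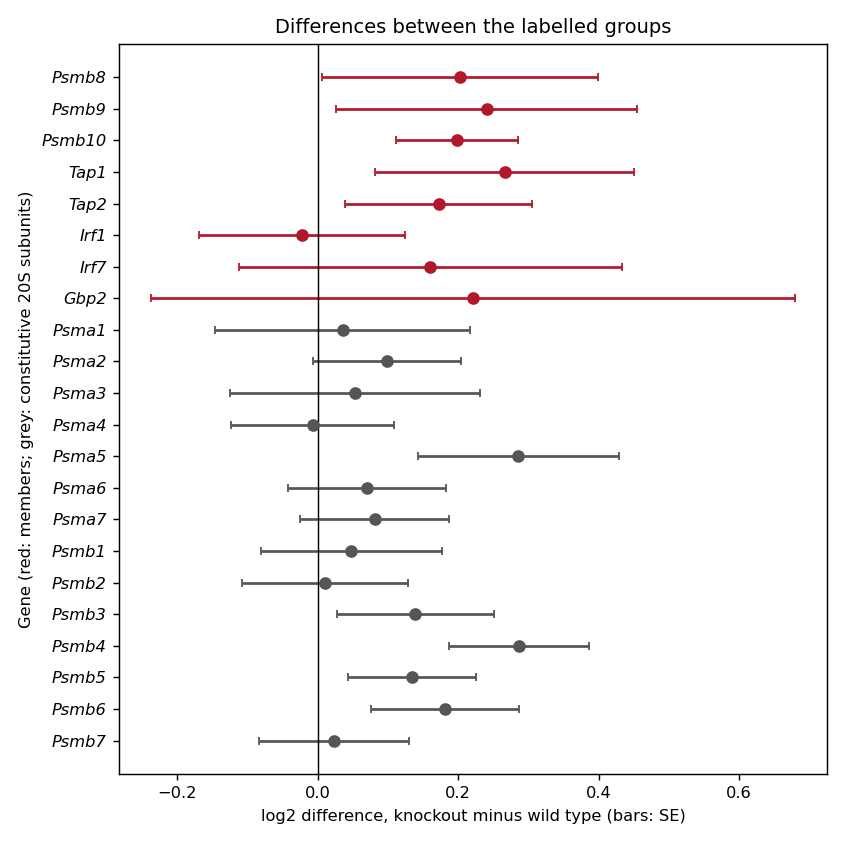
log2 difference, knockout minus wild type (x axis), with SE bars, for the 8 members (red) and 14 constitutive 20S subunits (grey). All members but Irf1 and all constitutive subunits but Psma4 lie above 0, and 0 of them passed after adjustment.

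Of the 10 genes most like the members only Ifitm3 is in the lists of interferon targets. Ranked by r over 10 arrays with the mean of the members' z-scores, the 10 highest other genes were Bub1b, Rpa2, Mrps7, Antxr1, Psmg4, Plaat3, Psma5, Dnph1, Ifitm3 and Nelfe, with r from 0.94 to 0.89. Bub1b acts in the spindle checkpoint, Rpa2 in DNA replication, Mrps7 in the mitochondrial ribosome and Psmg4 in proteasome assembly. The gene most like each member was H2-Eb1 for Psmb8 (0.93), Rpa2 for Psmb9 (0.95), Gnb2 for Psmb10 (0.92), Igtp for Tap1 (0.96), Thop1, a peptidase of the cytosol, for Tap2 (0.96), Jarid2 for Irf1 (0.96), Ces2a for Irf7 (0.96) and Dazap1 for Gbp2 (0.95).

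Markers of other cell types moved with some members, and in bulk tissue fewer cells of a type and less RNA per cell cannot be told apart. All 10 enterocyte markers had a negative r with Psmb9 (median -0.66), Irf1 (-0.66), Gbp2 (-0.56) and Tap1 (-0.51), and all had a positive r with Irf7 (median 0.34). Without KO3 these medians were -0.55, -0.66, -0.39 and -0.38, still with 0 of 10 positive. With Irf7 the median was then 0.20, and 6 of 10 were positive. The summed signal of the enterocyte markers was 122310 to 177640 on the knockout and 124290 to 200130 on the wild type arrays. Of the 10, 2 were higher and 8 lower in the knockout. Of 9 markers of T cells, intraepithelial lymphocytes and NK cells, the source of interferon gamma, 9 were lower in the knockout, with a summed signal of 2486 to 6274 against 4091 to 6558. Their median r was 0.07 with Psmb9, -0.06 with Tap1 and -0.08 with Gbp2. It was 0.24 with Psmb8 and 0.20 with Tap2, with 8 of 9 positive for each. With Psmb10, Irf1 and Irf7 it was -0.07, -0.11 and -0.13. Of 9 myeloid markers 5 were lower, with sums of 4584 to 7365 against 6437 to 7559. Their median r was 0.0027 with Gbp2 and ran from -0.15 (Irf1) to 0.14 (Irf7) over the members. Of 8 B and plasma cell markers 7 were lower (2252 to 10669 against 6753 to 13129), with a median r of -0.15 with Gbp2. Their median r was 0.34 with Irf1 (7 of 8 positive) and -0.38 with Tap2 (0 of 8 positive). It was -0.33 with Psmb10, -0.30 with Psmb8, -0.22 with Tap1, -0.14 with Psmb9 and -0.05 with Irf7. Markers of smooth muscle (7 of 7 higher, 20530 to 30579 against 16238 to 26819), of fat (4 of 4 higher, 1663 to 2757 against 693 to 2730) and of endothelium (4 of 4 lower, 612 to 777 against 837 to 928) differed in sign between groups as well. The endothelial sums did not overlap, which held for 1.55% of single probe sets. Over all probe sets 48.6% were higher. An unadjusted limma p under 0.05 was reached by 3 of 7 smooth muscle, 2 of 4 fat and 2 of 4 endothelial markers. It was reached by 2 of 8 B and plasma cell, 1 of 9 lymphocyte, 1 of 9 myeloid and 0 of 10 enterocyte markers. The share over all probe sets was 7.89%. After adjustment 0 passed. Markers within a list are not separate observations. No tested marker was at 0 on any array. Psmb10, the member with the lowest p, had a median r of 0.61 with the fat markers and -0.52 with the endothelial ones. These r include the differences between the labels given above, and were not computed with the label taken out. With the fat markers the median was 0.48 for Tap2, 0.43 for Psmb8, 0.31 for Psmb9 and 0.29 for Tap1. It was 0.18 for Gbp2, -0.07 for Irf7 and -0.18 for Irf1. With the endothelial markers the other members ran from -0.35 (Psmb9) to 0.03 (Gbp2). The part of these cells in the results was not tested.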

How the data were processed

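Per the series' design text, arrays were quantified with MAS 5.0. The authors deposited linear signal intensity values per probe set, which already had the same 2% trimmed mean of about 500 on every array. Each array was scaled again to 500 and log2(signal + 50) taken, so that fold changes of dim genes are understated. Control probe sets (64 of 22690) were left out, and those with a mean above the 40th percentile (123) or of Klf9 were tested (13579). Names come from the platform annotation, updated by gene ID through a RefSeq table for 20351 of 20380 probe sets with 1 symbol. The labels' 2 groups were fitted with limma 3.58.1 (in R 4.3.3: lmFit, eBayes with trend, two-sided, Benjamini-Hochberg over all tested probe sets, threshold 0.05). The fit was checked on simulated data. Correlations used 100000 permutations (all permutations with fewer arrays), two-sided, in numpy 2.4.6. Runs were split at gaps over 30 minutes between the arrays' recorded hybridize times. The labels do not say more of the animals than the design text, so p-values measure the spread between these arrays.

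The members and all gene lists were chosen with earlier results of these data known. Named genes are all members, Klf9, the 10 genes most like the members' mean, the gene most like each member, and up to 4 of lowest p per list. Any further gene was picked with its values in view. Alternatives were offsets of 1, 16 and 100, no filter or the 60th percentile, no rescaling, normalization by quantiles or by cyclic loess, untrended and robust eBayes, weights per array, a block for replicate number, run or fluidics module, averaging the probe sets of Gbp2, each array left out and both arrays labelled replicate 1 left out. Correlations with the target lists, constitutive subunits and enterocyte markers were also run without KO3 or without both arrays labelled replicate 1. These were added after seeing the data.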

Additional observations from a re-analysis of the deposited data

Results flagged for a closer look

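A group of 5 arrays was set apart where its highest or lowest array's gap to the nearest other, divided by the group's range of log2 values, exceeded 0.71. Of 18 groups (9 tested probe sets in each label) 2 did so, where the limit is nominally passed by about 1 in 20 groups of normal values. The share over all probe sets was not computed, so whether 2 of 18 is unusual here is not known. The groups are not separate observations either, since the Gbp2 probe sets had r = 0.91 with each other. For Irf7, WT1 was far above the other wild type arrays, with a ratio of 0.776 and a signal of 2296 against 1212 to 1400. For the brightest Gbp2 probe set, KO3 was far above the other knockout arrays, with a ratio of 0.806 and a signal of 2613 against 390 to 574. The further Gbp2 probe set was not set apart, though KO3 was highest there too, at 1440 against 162 to 436. KO3 also had the lowest Irf7 signal, 801.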

How the results depend on the processing

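The median log2 difference of the members was 0.12 to 0.22 over the settings that kept all arrays and 0.11 to 0.28 with each array left out. Psmb8, Psmb9, Psmb10, Tap1 and Tap2 stayed higher in the knockout and short of the threshold in every alternative run. With a block for the fluidics module, of which a single one held both labels (KO5 against WT2 and WT4), Irf1, Irf7 and Gbp2 turned to 0.22, -0.15 and -0.55. With each array left out Irf1 ran from -0.11 to 0.083, Gbp2 from -0.25 to 0.42 and Irf7 from 0.03 to 0.41. Over all probe sets, calls in limma went from 0 to 3 with array weights, 9 without both arrays labelled replicate 1 and 0 to 5 with each array left out, and in none of these did a member pass. The pairs of members that passed numbered 4 to 6 under other scalings and offsets, 0 without both arrays labelled replicate 1 (6 at an unadjusted p under 0.05) and 0 to 9 with each array left out, 0 being without KO3. The r of Psmb10 with Irf7 turned to -0.25 and -0.18 with quantile and cyclic loess normalization and ran from -0.17 to 0.29 with each array left out, and that of Tap2 with Irf7 from -0.48 to 0.10. Under a replicate block, which by its balance leaves each difference as it was (members' median 0.20), 0 probe sets passed in limma (1232 at an unadjusted p under 0.05, against 1072 without it). Tap1 then had an unadjusted p of 0.0287 (adjusted 0.498; 0.171 without the block) and Psmb10 one of 0.0632 (adjusted 0.567; 0.0386 without it) in limma. The numbers were not taken as pairs, since that asked for every correlation of same-numbered deviations to exceed 0.1: they were 0.18, 0.03, 0.28, 0.12 and -0.12, 3 of 5 above it. As a hint from the data, 3 of 5 knockout arrays correlated best with their own number, and the runs hold whole replicate numbers. The causes of these changes were not tested. How far single probe sets lie above background was not assessed, since detection calls were not used here.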
